A study of Mus musculus with 6 samples.

Results

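The genes described here are 10 that belong to the cellular response to low oxygen: Hif1a, the prolyl hydroxylase genes Egln1 and Egln3, and the hypoxia-induced genes Bnip3, Bnip3l, Ndrg1, Ankrd37, Mxi1, Ddit4 and Adm. They were taken by gene symbol from a table of 56448 genes, and each symbol had 1 row. Messenger RNA had been sequenced from 4T1 cells, a line from a mouse mammary carcinoma that was grown in medium with fetal bovine serum. The series describes a stable knockdown of the microRNA miR-9 made by lentivirus, and 3 libraries each carried the genotype label LV2 or in9. The labels do not spell out these names or say which is the control, so each difference is in9 minus LV2. No label gives an oxygen level, a treatment, a time, or whether a line was 1 clone, and nothing states that the replicates were separate cultures. The p-values thus reflect how much these 6 libraries varied, which may be technical variation alone. In libraries of bulk RNA, fewer cells of a kind and less RNA per cell cannot be told apart.

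The factor HIF joins an oxygen-regulated alpha subunit, such as the product of Hif1a, with the stable partner encoded by Arnt. When oxygen is present, the prolyl hydroxylases of the Egln genes mark the alpha subunit, and the ubiquitin ligase that contains the VHL protein and RBX1 then directs its breakdown. At low oxygen the alpha subunit accumulates and HIF binds short DNA elements with the core ACGTG or GCGTG near genes of glycolysis, mitophagy, pH control and growth restraint. Hif1a is known to be regulated mainly through its protein, whereas Egln3, Bnip3, Ndrg1, Ankrd37 and Adm are known as genes whose transcripts HIF raises.

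RefSeq promoters (GRCm38.p6, the assembly of mm10) were at hand for 8 of the 10 genes, and they are shown because all of these genes are known to respond to hypoxia. Each ran from 250 bases before to 50 after a start of transcription, 300 bases in all, and Mxi1 had more than 1. The motifs ACGTG and GCGTG were searched on both strands, and CACGTG counts as ACGTG on each strand. Below, Bnip3 and Ankrd37 are the members with the largest fold changes among those called, Ddit4 is a called member of smaller change, and Hif1a was not called. Capitals mark the motif on either strand, so that CACGT is ACGTG and CACGC is GCGTG on the opposite strand, and neighbouring matches run together.
Bnip3, chr7:138909457-138909756, minus strand: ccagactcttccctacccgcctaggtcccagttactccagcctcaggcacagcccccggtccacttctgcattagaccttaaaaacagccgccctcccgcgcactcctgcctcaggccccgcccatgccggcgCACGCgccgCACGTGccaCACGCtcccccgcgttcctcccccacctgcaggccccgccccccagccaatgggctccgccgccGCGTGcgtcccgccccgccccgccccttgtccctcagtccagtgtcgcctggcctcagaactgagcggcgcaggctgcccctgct
Ankrd37, chr8:45999801-46000100, minus strand: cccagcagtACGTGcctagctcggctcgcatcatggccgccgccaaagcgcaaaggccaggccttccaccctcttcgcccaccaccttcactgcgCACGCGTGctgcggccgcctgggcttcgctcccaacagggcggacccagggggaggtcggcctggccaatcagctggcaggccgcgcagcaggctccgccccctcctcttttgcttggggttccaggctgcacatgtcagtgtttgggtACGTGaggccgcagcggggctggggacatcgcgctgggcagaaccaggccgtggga
Ddit4, chr10:59951721-59952020, minus strand: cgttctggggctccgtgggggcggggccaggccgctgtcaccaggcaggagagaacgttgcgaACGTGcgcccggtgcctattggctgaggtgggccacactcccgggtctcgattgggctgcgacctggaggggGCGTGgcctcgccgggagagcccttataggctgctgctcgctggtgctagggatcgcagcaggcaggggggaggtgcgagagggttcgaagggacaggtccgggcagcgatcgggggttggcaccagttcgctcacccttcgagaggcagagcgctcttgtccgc
Hif1a, chr12:73907617-73907916, plus strand: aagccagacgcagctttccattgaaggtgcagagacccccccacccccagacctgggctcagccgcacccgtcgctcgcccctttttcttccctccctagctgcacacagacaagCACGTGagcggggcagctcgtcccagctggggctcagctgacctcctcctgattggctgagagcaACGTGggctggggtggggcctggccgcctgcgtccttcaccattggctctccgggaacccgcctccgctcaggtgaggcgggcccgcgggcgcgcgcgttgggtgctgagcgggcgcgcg

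In Bnip3 the palindrome CACGTG gave matches at -108 and -107 from the start, with GCGTG at -117, -99 and -35. In Ankrd37 ACGTG lay at -241 and -6, and GCGTG on opposite strands at -155 and -152. Ddit4 held ACGTG at -187 and GCGTG at -115, and Hif1a held ACGTG at -135, -134 and -70. ACGTG was in a promoter of 7 of the 8 matched genes, against 2764 of 9188 tested genes with a promoter (30.1%). Adm, the gene without it, held GCGTG at -90 and -54. Either motif was in a promoter of all 8, against 69.1% of tested genes. Over all 32851 promoters of the same length, 19.6% held ACGTG and 43.8% held either motif. The G and C content of the members' promoters was 54.7% to 86.0%, beside a median of 60.7% for tested genes. Those of Bnip3, Ankrd37, Ddit4, Egln1 and Hif1a, at 69.0% to 86.0%, lay above that median. Those of Adm (56.0%) and Egln3 (54.7%) lay below it, and the Mxi1 promoters were at 56.0%, 63.0% and 75.0%. The part of this content in the motif counts was not tested, and these matches are a description of letters only.

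The microRNA that the series targets was also set against the members. Mature mmu-miR-9-5p from RefSeq has the seed, bases 2 to 8, in capitals. The sites below it are 7-base matches, in capitals, in the longest 3' UTR that GENCODE M21 gives for each member, with positions counted from the first base of that UTR. Those of Ndrg1 and Mxi1 match bases 2 to 8, and that of Egln3 matches bases 2 to 7 followed by an A.
mmu-miR-9-5p: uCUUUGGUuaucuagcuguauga
Ndrg1, UTR positions 177 to 183: ggtggtggtggACCAAAGgcaagaagcag
Mxi1, UTR positions 2826 to 2832: cctgtttatatACCAAAGgagcctgacaa
Egln3, UTR positions 67 to 73: agtgtcaagatCCAAAGAatccatacaat

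Sites were found in 3 of the 10 members and in 2433 of 10946 tested genes with a 3' UTR (22.2%). Of those 3, Ndrg1 and Mxi1 were called higher and Egln3 was not. Bnip3, Ankrd37 and Ddit4, in which no site was found, were called higher as well. The share of genes called was not computed for tested genes with and without a site. Each of the 6 libraries lists Mir9-1, Mir9-2, Mir9-3 and Mir9-3hg at 0, so the level of miR-9 itself was not read here.

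Of the 10 genes, 5 were called higher in the libraries labelled in9: Bnip3, Ankrd37, Ndrg1, Mxi1 and Ddit4. Their values in TPM (transcript abundance corrected for gene length and library total) were 1.29 to 1.63 times those of LV2. A call is an adjusted p under 0.05 in limma on log2(TPM + 1), with p-values adjusted by Benjamini-Hochberg over the 13406 genes whose mean reached 1 TPM. All 10 members passed that filter. Adm did so only through the in9 libraries, where its mean was 1.66 TPM beside 0.97 in LV2. Its place in the counts over 10 below is therefore no support. The 5 called members compare with 0.821% of all tested genes called higher. The members were chosen with earlier results of these data known, so this and the comparisons with all tested genes below are a description. None of the 10 was called lower, or had an unadjusted p under 0.05 in that direction, where the shares of all tested genes were 0.194% and 5.86%. At an unadjusted p under 0.05 in limma, 9 of 10 were higher, against 13.6% of tested genes. In 9 of 10 every in9 library lay above every LV2 library, against 17.4% of tested genes, and in none did every in9 library lie below, against 8.08%. All 10 log2 fold changes were positive, as were 63.7% of those of tested genes. The median log2 fold change of the members was 0.39, beside 0.06 over all tested genes, and 0.33 beside -0.00 after trimmed-mean scaling. The calls were close to the threshold and rested on all 3 libraries of LV2 and on in9 replicates 2 and 3: without any 1 of those 5, none of the 10 was called. This loss was not particular to the members: over all tested genes 4 to 9 were then called higher and 1 to 2 lower. With all 6 libraries these counts were 110 and 26. Without in9 replicate 1, limma called 9 of 10 higher, when 6.77% of tested genes were called higher. Of the in9 libraries, that one lay nearest to LV2 on the first principal component described below. Leaving it out raised the calls over all tested genes to 908 higher and 494 lower. The p-values given without it are thus a description.

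**Figure D1:**
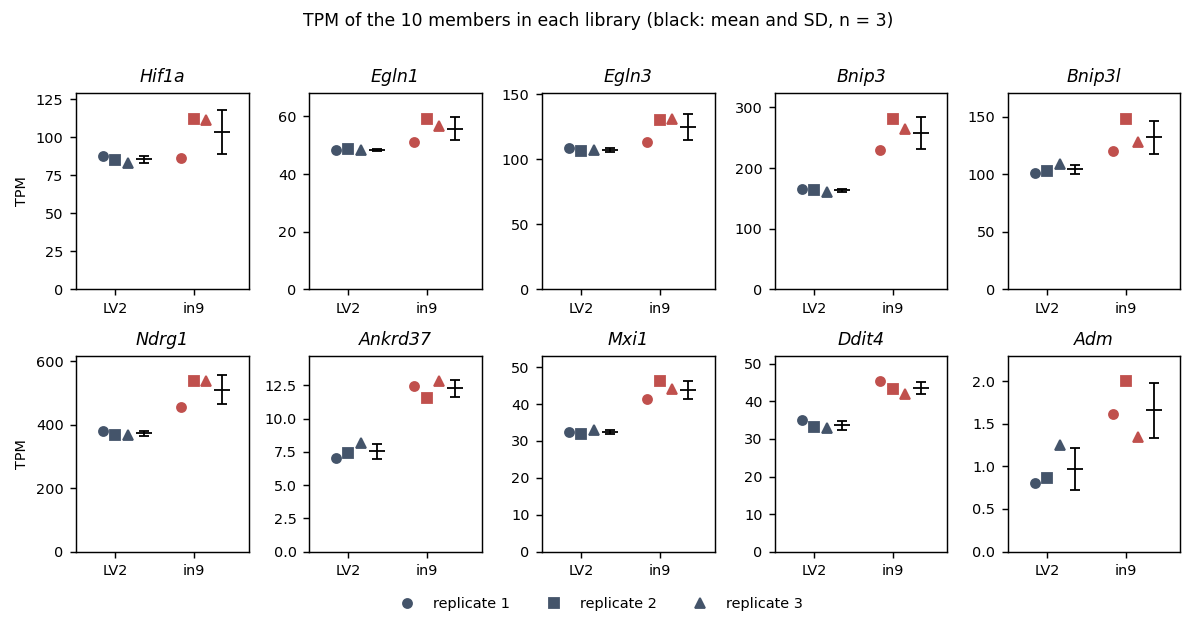
Level of each of the 10 genes in TPM on the vertical axis, from 0, for the 3 LV2 and 3 in9 libraries, with symbols for the replicate number and black bars for mean and SD. In Hif1a in9 replicate 1 (86.5) lies among the LV2 libraries, while in Bnip3 all in9 libraries (229.71 to 281.26) lie above all LV2 libraries (160.59 to 165.0).

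Hif1a (chromosome 12, 73901375 to 73947530, mm10) encodes the oxygen-regulated HIF-1alpha subunit. Its TPM was 87.84, 85.33 and 83.41 in LV2 replicates 1 to 3 and 86.5, 112.24 and 111.43 in in9 replicates 1 to 3. In9 replicates 2 and 3 lay above every LV2 library and replicate 1 lay within their range. The means were 85.5 ± 2.22 and 103 ± 14.6 (SD, n = 3), and the log2 fold change was 0.26 (SE 0.10; limma's adjusted p = 0.239). Without in9 replicate 1 it was 0.38 with an adjusted p of 0.0134. With any other 1 library left out, limma's adjusted p was 0.33 to 0.503. The antisense gene Gm15283 shares 330 of Hif1a's 5896 exon bases (5.6%) and had 1.99 to 5.2 TPM. Because the sources do not say whether counting used the strand, reads from that stretch cannot be divided between them.

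The prolyl hydroxylases are the oxygen sensors that mark HIF-1alpha, and Egln1 encodes the form held to act most in normal oxygen. Egln1 (chromosome 8, 124908587 to 124949324) had a TPM of 48.32, 48.81 and 48.25 in LV2 and 51.24, 59.16 and 56.79 in in9. The LV2 libraries spanned less than 1 TPM, and all 3 in9 libraries lay above them, replicate 1 the closest. Limma gave a log2 fold change of 0.20 (SE 0.06, n = 3 and 3). Its adjusted p was 0.173, and 0.0301 without in9 replicate 1. With any other 1 library left out, that p was 0.283 to 0.395.

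Egln3, the hydroxylase gene that HIF itself is known to raise strongly, lies on chromosome 12 from 54178981 to 54203860. Its TPM was 108.42, 106.01 and 106.88 in LV2 and 113.49, 130.04 and 131.12 in in9. Again the groups did not overlap and replicate 1 of in9 was the nearest to LV2. Limma put the log2 fold change at 0.22 (SE 0.06), for which the adjusted p was 0.148, and 0.0163 without in9 replicate 1. With any other 1 library left out, that p was 0.245 to 0.373. The ratio of Egln3 to Egln1 in TPM was 2.21 ± 0.0362 in LV2 and 2.24 ± 0.0597 in in9 (SD, n = 3). That difference gave p = 0.7 in a two-sided exact permutation test, also 0.7 after Benjamini-Hochberg adjustment over the 2 ratios computed.

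Bnip3 and Bnip3l encode related receptors on the outer mitochondrial membrane that recruit the autophagy machinery to mitochondria. Bnip3 (chromosome 7, 138890836 to 138909519), whose promoter is printed above, had a TPM of 165.0, 164.06 and 160.59 in LV2 and 229.71, 281.26 and 264.73 in in9. The lowest in9 library, replicate 1, was above the highest LV2 library by more than the whole spread within LV2. The means were 163 ± 2.32 and 259 ± 26.3 (SD, n = 3), 1.58 times as high in in9. Bnip3 rose by a log2 fold change of 0.66 ± 0.08 (SE; 95% interval 0.47 to 0.84), for which limma gave an adjusted p of 0.0296. The antisense gene Gm45507, which shares 22.3% of Bnip3's exon bases, was listed at 0 throughout.

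Bnip3l, also known as Nix (chromosome 14, 66985239 to 67008877), had a TPM of 101.26, 102.77 and 108.6 in LV2 and 120.12, 148.05 and 127.61 in in9. The groups did not overlap, and in9 replicate 2 was well above the other two. The means were 104 ± 3.88 and 132 ± 14.5 (SD, n = 3). The log2 fold change of 0.33 ± 0.08 (SE) had an adjusted p of 0.11 in limma. Without in9 replicate 1 it was 0.40 with an adjusted p of 0.0366. With any other 1 library left out, limma's adjusted p was 0.212 to 0.315. The ratio of Bnip3 to Bnip3l was 1.63, 1.6 and 1.48 in LV2 and 1.91, 1.9 and 2.07 in in9, without overlap. A two-sided exact permutation test of that ratio gave p = 0.1, the smallest that 3 against 3 libraries allow, and 0.2 after adjustment over the 2 ratios.

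Ndrg1 encodes a cytoplasmic protein known to be induced by hypoxia and by differentiation. With 380.64, 368.64 and 369.2 TPM in LV2 and 457.08, 537.26 and 537.93 in in9, it had the highest level of the 10 in each library. The 2 groups did not overlap, and in9 replicates 2 and 3 were nearly equal with replicate 1 between them and LV2. The means were 373 ± 6.77 and 511 ± 46.5 (SD, n = 3). Ndrg1 (chromosome 15, 66929318 to 66969640) rose by 0.45 ± 0.07 (SE) on the log2 scale (adjusted p = 0.0473 in limma).

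Ankrd37, which encodes a small ankyrin repeat protein, was the member with the largest ratio of means among those called. Its TPM was 7.05, 7.39 and 8.14 in LV2 and 12.47, 11.55 and 12.81 in in9. Here in9 replicate 1 was between the other two in9 libraries rather than nearest to LV2. The means of 7.53 ± 0.558 and 12.3 ± 0.652 (SD, n = 3) stand at a ratio of 1.63, and Ankrd37 rose by 0.64 on the log2 scale (SE 0.09; adjusted p = 0.0432 in limma). After trimmed-mean scaling the adjusted p was 0.0546. The gene (chromosome 8, 45996902 to 46005707) shares 57 of its 1539 exon bases with Ufsp2 on the opposite strand, which had 31.32 to 32.89 TPM in LV2 and 37.58 to 39.36 in in9. A further 349 are shared with Lrp2bp, at 0.61 TPM or less. Reads from those stretches could not be assigned by strand as far as the sources say.

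Mxi1 encodes a partner of MAX that competes with MYC for it and represses MYC targets. Its TPM was 32.32, 31.92 and 33.07 in LV2 and 41.3, 46.2 and 44.2 in in9. Every in9 library was above every LV2 library by several times the spread within LV2. The means were 32.4 ± 0.584 and 43.9 ± 2.46 (SD, n = 3). Mxi1 (chromosome 19, 53310518 to 53375810) rose by 0.42 ± 0.06 (SE) on the log2 scale (adjusted p = 0.0453 in limma).

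Ddit4 encodes REDD1, an inhibitor of the growth kinase complex mTORC1 that is induced by hypoxia and other stresses. Its TPM was 35.09, 33.09 and 32.81 in LV2 and 45.41, 43.23 and 42.09 in in9. It was the 1 member in which in9 replicate 1 was the in9 library farthest from LV2. The means were 33.7 ± 1.24 and 43.6 ± 1.69 (SD, n = 3). Ddit4 (chromosome 10, 59949669 to 59951834) rose by 0.36 ± 0.06 (SE) on the log2 scale (adjusted p = 0.0473 in limma), and the adjusted p was 0.0993 after trimmed-mean scaling.

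Adm encodes adrenomedullin, a secreted vasodilator peptide. It was near the lower limit of the tested range, at 0.8, 0.86 and 1.25 TPM in LV2 and 1.62, 2.0 and 1.35 in in9. Its mean reached 1 TPM only through the in9 libraries. The groups did not overlap, but the highest LV2 and lowest in9 libraries differed by little. The log2 fold change of 0.43 ± 0.19 (SE; 95% interval -0.03 to 0.89) had an adjusted p of 0.283 in limma. Adding 1 to each value understates the change of so low a gene: with a pseudocount of 0.1 the log2 fold change was 0.72. Adm (chromosome 7, 110627661 to 110629820) was not called under any setting tried.

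The library in9 replicate 1 differed from the other in9 libraries in most, though not all, of these genes. Its difference from the LV2 mean, on the log2(TPM + 1) scale, was 0.02 for Hif1a, where replicates 2 and 3 had 0.39 and 0.38. That is 4.3% of the mean of the latter pair. The corresponding share was 31.1% for Egln1, 29.2% for Egln3, 51.4% for Bnip3l, 55.7% for Ndrg1, 66.5% for Bnip3 and 72.8% for Mxi1. For Adm, Ankrd37 and Ddit4 it was 95.6%, 105.3% and 126.5%. Thus the 3 genes for HIF and its hydroxylases stood closest to LV2 in this library, and Ankrd37 and Ddit4 were as far from LV2 as in the other in9 libraries. The median difference over the 10 members was 0.32, 0.50 and 0.35 in in9 replicates 1 to 3, and over all tested genes it was 0.00, 0.08 and 0.09. On the first principal component of all tested genes, which held 28.1% of the variance, in9 replicate 1 was at -2.7. The other in9 libraries were at 26.1 and 27.8, and the LV2 libraries at -6.98, -22 and -22.2. What sets this library apart was not tested.

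**Figure D2:**
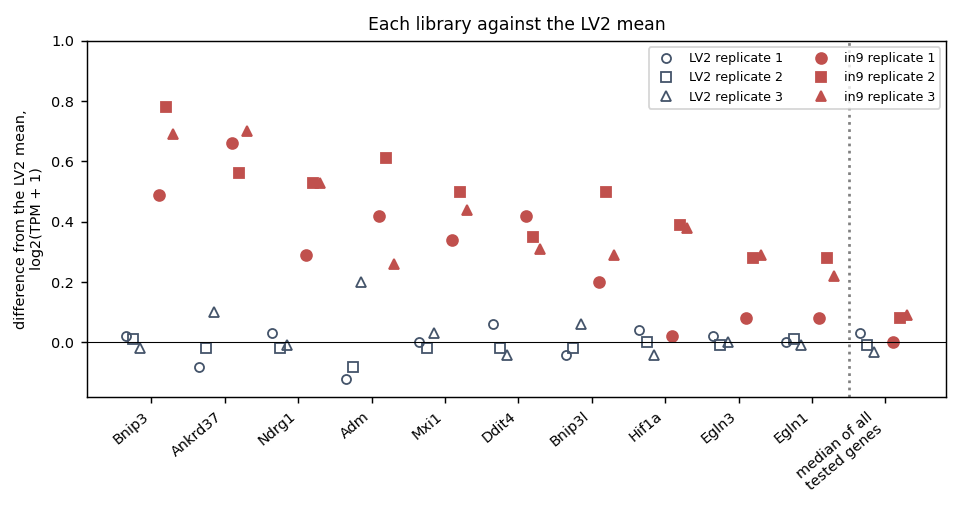
Difference of each library from the LV2 mean in log2(TPM + 1), for the 10 genes and for the median of all tested genes at the right, with open symbols for LV2, filled symbols for in9 and a shape for each replicate. The circle of in9 replicate 1 is at 0.02 for Hif1a and 0.08 for Egln1 and Egln3, but at 0.66 for Ankrd37 and 0.42 for Ddit4, where it is among the other in9 libraries or above them.

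In TPM, which is per length, the order of the members in LV2 was Ndrg1, Bnip3, Egln3, Bnip3l, Hif1a, Egln1, Ddit4, Mxi1, Ankrd37 and Adm. Egln3 and Bnip3l overlapped between libraries, as did Ddit4 and Mxi1, and each other pair of neighbours was separate in all 3 libraries. In in9 both of those pairs stood in the opposite order of means, and both overlapped there too, so neither exchange exceeds the spread. The members ranged from a mean of 0.97 TPM for Adm to 373 for Ndrg1 in LV2, and from 1.66 to 511 in in9.

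Of the other subunits and regulators of HIF, 19 of 24 in the table could be tested. Limma called 0 of them higher and 1 lower, against 0.821% and 0.194% of tested genes. Beside 0.06 over all tested genes, their median log2 fold change was 0.03. At an unadjusted p under 0.05 they were 2 higher and 1 lower, against 13.6% and 5.86% of tested genes. The 1 called lower was Rbx1, the RING subunit of the ligase that contains VHL and of other cullin ligases, with 70.66, 69.24 and 68.99 TPM in LV2 and 54.86, 54.8 and 51.83 in in9. Rbx1 fell by 0.37 on the log2 scale (SE 0.05; adjusted p = 0.0355 in limma), and its 3 in9 libraries lay together. Vhl had 12.5 ± 0.657 TPM in LV2 and 13.6 ± 0.598 in in9 (SD, n = 3; adjusted p = 0.428 in limma). Arnt, the partner of HIF-1alpha, had 25.3 ± 1.14 and 28.1 ± 3.05 TPM (adjusted p = 0.423 in limma). Egln2, the third prolyl hydroxylase of this group, had 22.9 ± 1.98 and 22.9 ± 1.21 TPM, a log2 fold change of 0.00 with a 95% interval of -0.19 to 0.20. Hif1an, the asparaginyl hydroxylase that blocks coactivator binding to HIF, had 10.1 ± 0.423 and 11.8 ± 1.16 TPM (adjusted p = 0.293 in limma). Os9, which encodes a lectin of the endoplasmic reticulum, and Cited2, which competes with HIF for its coactivator, had log2 fold changes of 0.20 and 0.16 with adjusted p of 0.145 and 0.214 in limma. Without in9 replicate 1, limma called Cited2 higher (adjusted p = 0.0328) and 2 genes lower, Rbx1 and Eloc. The shares of all tested genes called were then 6.77% higher and 3.68% lower. Eloc, for an elongin subunit of the VHL ligase, had 221.07, 237.51 and 235.73 TPM in LV2 and 245.82, 165.72 and 170.08 in in9. Its in9 replicate 1 was above every LV2 library and the other in9 libraries were below them. The log2 fold change of Eloc was -0.28 with all libraries (adjusted p = 0.356 in limma) and -0.46 without in9 replicate 1 (adjusted p = 0.0119). The other alpha subunits were too low to test, with Epas1 at 0.02 TPM or less and Hif3a at 0.5 or less in each library.

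A list of 55 other hypoxia-induced genes had 54 in the table and 44 that could be tested. It was drawn up with earlier results of these data known, and its counts are a description. Cited2 also stands in the list of HIF subunits and regulators and is counted in both. Of the 44, 42 had a positive log2 fold change, against 63.7% of tested genes. The median of the 44 was 0.16 beside 0.06 for all tested genes (0.09 beside -0.00 after trimmed-mean scaling). Limma called 1 higher and 0 lower, against 0.821% and 0.194% of all tested genes. By unadjusted p under 0.05, 20 were higher and 0 lower, against 13.6% and 5.86% of all tested genes. In 18 every in9 library lay above every LV2 library, against 17.4%. The 1 called was Stc1, for the secreted glycoprotein stanniocalcin-1, with 10.57, 10.38 and 10.9 TPM in LV2 and 14.76, 18.46 and 17.16 in in9. Stc1 rose by 0.61 on the log2 scale (SE 0.09; adjusted p = 0.0473 in limma). Next by p-value were Car9, the cell-surface carbonic anhydrase, and Gys1, the glycogen synthase of muscle and many other tissues. Car9 had 43.2 ± 0.312 TPM in LV2 and 56.6 ± 4.15 in in9 (SD, n = 3; adjusted p = 0.0565 in limma). Gys1 had 35.8 ± 2.01 and 50.1 ± 4.94 TPM (adjusted p = 0.0633 in limma). Vegfa, the angiogenic growth factor, had overlapping groups at 33.3 ± 7.24 and 42.1 ± 6.41 TPM (adjusted p = 0.33 in limma). Without in9 replicate 1, limma called 13 of the 44 higher and 1 lower, against 6.77% and 3.68% of tested genes. When any 1 of the other 5 libraries was left out, neither Stc1 nor Rbx1 was called. Over all tested genes 4 to 9 were then called higher and 1 to 2 lower. The 13 called without in9 replicate 1 include Car9, Pdk1, Plod2, Gys1 and Stc1, and the lower one was Higd1a, a mitochondrial inner membrane protein gene, at -0.31 (adjusted p = 0.0314 in limma).

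**Figure D3:**
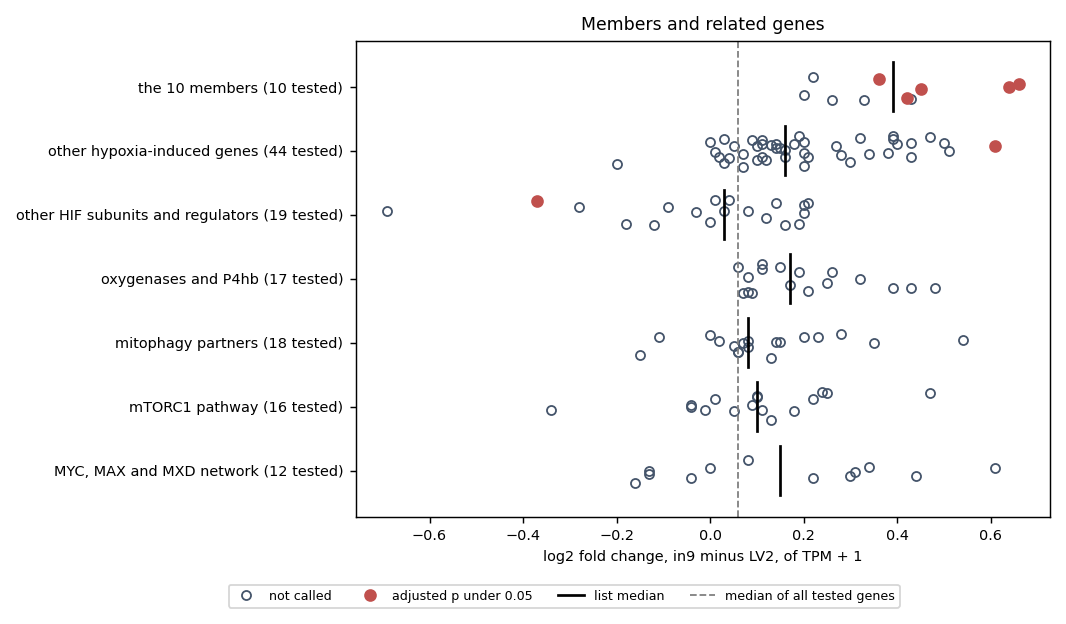
Log2 fold change (in9 minus LV2, of TPM + 1) on the horizontal axis for each tested gene of the 10 members and of 6 related lists, with filled points called at an adjusted p under 0.05, a bar at each list's median and a dashed line at the median of all tested genes. The members' median of 0.39 is the farthest right of the 7, and the only filled point to the left of 0 is Rbx1 at -0.37. The members and lists were chosen with earlier results of these data known.

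The partners of single members were counted in the same way. A list of oxygenases of the same enzyme class as the Egln proteins, such as collagen hydroxylases and histone demethylases, also held P4hb, the disulfide isomerase that partners the collagen hydroxylase and is no oxygenase. Of its 17 tested genes limma called 0 in either direction, where the shares of all tested genes are 0.821% higher and 0.194% lower. By unadjusted p under 0.05, 6 of the 17 were higher and 0 lower, where the shares of all tested genes are 13.6% and 5.86%. The median log2 fold change was 0.17 beside 0.06 for all tested genes, and 0.11 beside -0.00 after trimmed-mean scaling. All 17 were positive, as were 63.7% of tested genes. Without in9 replicate 1, limma called 4 of them higher (Plod1, Plod2, Kdm6b and Tet2) and 0 lower, against 6.77% and 3.68% of tested genes. Some of these genes also stand in the list of hypoxia-induced genes. Plod1, a lysyl hydroxylase, had 18.6 ± 1.41 TPM in LV2 and 24.7 ± 0.455 in in9 (SD, n = 3; adjusted p = 0.0633 in limma). Plod2 and Kdm3a had adjusted p of 0.133 and 0.196.

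Of 18 tested genes of mitophagy around Bnip3 and Bnip3l, limma called 0, against 0.821% of tested genes called higher and 0.194% lower. Their median log2 fold change was 0.08, beside 0.06 over all tested genes. By unadjusted p under 0.05, 4 were higher and 1 was lower. The shares of all tested genes at that p are 13.6% and 5.86%. Gabarapl1, which encodes an autophagosome protein of the family that binds such receptors, had 33.7 ± 2.21 TPM in LV2 and 43.0 ± 1.05 in in9 (SD, n = 3; adjusted p = 0.0633 in limma). Bcl2l13, another mitophagy receptor, had 27.9 ± 3.29 and 41.4 ± 8.06 TPM (adjusted p = 0.131 in limma), and Bcl2l1 an adjusted p of 0.216. When in9 replicate 1 was left out, limma called Gabarapl1 and Bcl2l13 higher (adjusted p = 0.0366 and 0.0455), 2 of 18 against 6.77% of tested genes.

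Of 16 tested genes of the mTORC1 pathway that Ddit4 restrains, limma called 0, against 0.821% of tested genes called higher and 0.194% lower. By unadjusted p under 0.05, 1 was higher and 0 were lower, against 13.6% and 5.86% of tested genes. That 1 was Sesn1, a stress-induced inhibitor of the same pathway, with a log2 difference of 0.47 (SE 0.13; adjusted p = 0.135 in limma). Tbc1d7 and Txnip followed with adjusted p of 0.325 and 0.334. Of 12 tested genes of the MYC, MAX and MXD network, limma called 0, beside the same shares of tested genes called. By unadjusted p under 0.05, 4 were higher and 2 were lower, against 13.6% and 5.86%. Mxd4, of the same repressor family as Mxi1, had 3.82 ± 0.564 TPM in LV2 and 6.32 ± 0.534 in in9 (SD, n = 3; adjusted p = 0.0822 in limma). Mnt and Mxd1 had adjusted p of 0.116 and 0.156. The 2 lower were Max, the shared partner of the network, and Sin3b, a corepressor that MXD proteins recruit. Max had 78.2 ± 3.92 TPM in LV2 and 71.3 ± 1.75 in in9 (adjusted p = 0.246 in limma), and Sin3b 174 ± 0.869 and 159 ± 9.31 (adjusted p = 0.232 in limma). Once in9 replicate 1 was left out, limma called Mnt and Sin3a higher (adjusted p = 0.0439 and 0.0351) and Sin3b lower (0.0352). The shares of all tested genes called were then 6.77% higher and 3.68% lower. Myc had 243 ± 2.68 and 257 ± 8.32 TPM (adjusted p = 0.334 in limma).

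For Adm the receptor genes were near 0: Calcrl, the receptor for the peptide, had 0.62 TPM or less and Ramp2, its usual partner, 0.24 or less. Only 3 of 9 genes of that pathway could be tested, and limma called 0, against 0.821% of tested genes called higher and 0.194% lower. An unadjusted p under 0.05 was reached by 1 higher and 0 lower, against 13.6% and 5.86% of tested genes. That 1 was Pam, the enzyme that amidates adrenomedullin and other peptides, at 81.5 ± 5.48 TPM in LV2 and 96.4 ± 7.48 in in9 (SD, n = 3; adjusted p = 0.173 in limma). Ackr3 and Crcp had adjusted p of 0.293 and 0.712. Of the relatives of Ndrg1, limma called 0 of 2 tested, beside the same shares of tested genes called. By unadjusted p under 0.05, 1 was higher and 0 lower, against 13.6% and 5.86%. Ndrg4 and Ndrg3 had adjusted p of 0.121 and 0.309, and Ndrg2 was at 0.07 TPM or less.

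For each called member, the 2 genes most like it were those with the highest Pearson r of log2(TPM + 1) over the 6 libraries, among 10838 tested genes with a symbol that is no clone or predicted name. The r is a description over 6 points that fall into the study's groups. For Bnip3 these were Pgm1 and Ugdh (each r = 0.997), the former an enzyme between glycolysis and glycogen. For Ndrg1 they were Car9 and Klf7 (0.998), and for Mxi1 they were Stc1 and Plat (0.997). For Ankrd37 they were Cd99l2 (0.994) and Aldh2 (0.992), and for Ddit4 they were Ctsd (0.999) and Bag2 (0.995). Between 167 genes for Ankrd37 and 401 for Ndrg1 had an r above 0.95, so none of these is singled out. Car9 and Stc1 are the genes among them that the list of hypoxia-induced genes holds.

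The calls depended on the settings as the map of settings shows. Bnip3 and Mxi1 were called under 7 of 15 alternatives, Ndrg1 under 6, Ankrd37 and Ddit4 under 5. Hif1a, Egln1, Egln3 and Bnip3l were called under 2, which were library weights and leaving out in9 replicate 1. Trimmed-mean scaling ended the calls of Ankrd37 and Ddit4, and quantile normalization those of Ankrd37, Ddit4 and Ndrg1. Each of the 10 kept a positive log2 fold change under every alternative in which it was tested.

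**Figure D4:**
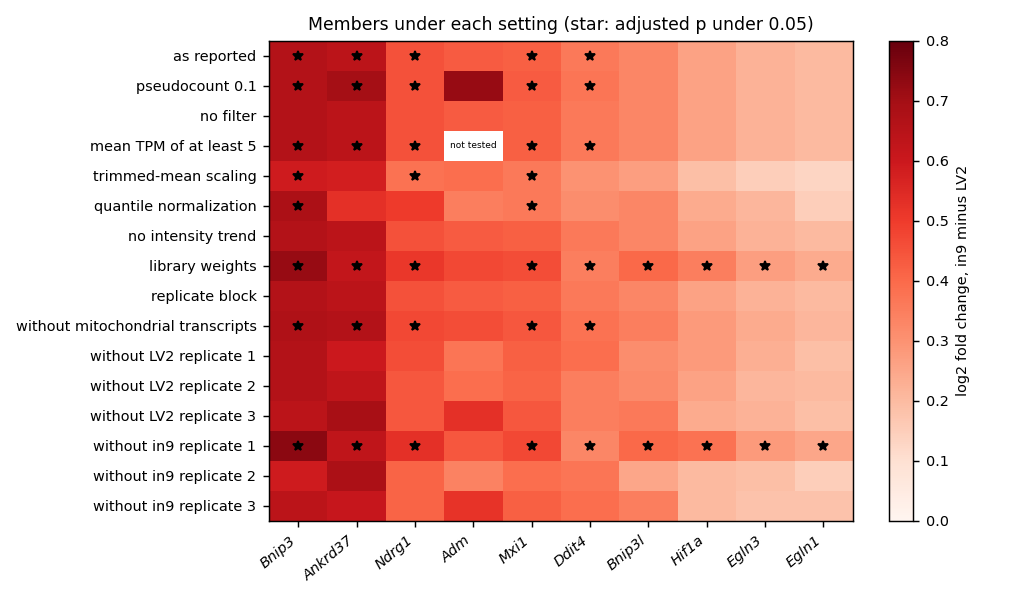
Log2 fold change (in9 minus LV2, colour scale) of the 10 genes in columns, for the reported fit and 15 alternatives in rows, with a star at an adjusted p under 0.05. Stars are in 9 columns for library weights and without in9 replicate 1, in none when any other library was left out, and never for Adm.

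The labelled cell type was read from marker genes. The epithelial keratins Krt8 and Krt18 were at 864.71 TPM or more in each library, while Krt14 was at 2.39 to 4.0. Of the epithelial markers, 7 of 7 could be tested. Of these 3 had a positive and 4 a negative log2 fold change, where 63.7% of tested genes were positive. In 3 of them, Krt8, Krt18 and Epcam, every in9 library lay below every LV2 library, against 8.08% of tested genes. In 0 did every in9 library lie above, against 17.4%. Limma called 0 of the 7, against 0.821% of tested genes called higher and 0.194% lower. By unadjusted p under 0.05, 1 was higher and 2 were lower. The shares of all tested genes at that p are 13.6% and 5.86%. Epcam, the epithelial adhesion molecule gene, ranged from 43.85 to 47.65 TPM over LV2 and from 35.87 to 38.11 over in9 (adjusted p = 0.0633 in limma, and 0.0299 without in9 replicate 1). Cdh1, the gene for E-cadherin, had 118.18 to 130.37 TPM in LV2 and 129.85 to 147.13 in in9 (adjusted p = 0.201 in limma, and 0.0421 without in9 replicate 1). Of the markers of other cells, 1 of 8 for leukocytes, 1 of 5 for endothelium, 1 of 7 for fibroblasts and 0 of 5 for erythroid cells could be tested. The leukocyte marker was Cd68, a lysosomal protein gene also read in other cells, with 27.48 to 28.77 TPM in LV2 and 33.55 to 40.56 in in9 (adjusted p = 0.0744 in limma, and 0.0153 without in9 replicate 1), while Ptprc was at 0.12 or less. Summed over the leukocyte list, LV2 libraries held 27.9 to 28.9 TPM and in9 libraries 33.7 to 40.9, nearly all from Cd68. For fibroblasts the sums were 5.21 to 7.39 and 8.63 to 9.08, nearly all from Pdgfra (adjusted p = 0.121 in limma), with Lum at 0. Endothelial markers summed to 2.14 to 2.29 and 2.26 to 2.86 TPM, with Cdh5 at an adjusted p of 0.727, and erythroid markers to 1.4 or less. The part of other cells in the results was not tested. Between 20123 and 20538 genes were above 0 in a library, and TPM keeps no depth, so the depth is unknown.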

How the data were processed

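Messenger RNA of 4T1 cells was read from 1 table of 56448 genes in 6 libraries, 3 for each label, whose values are TPM as deposited by the authors. The genome was mm10 per the submitters' processing notes, and for aligner, quantifier and annotation the entry is: not given in the sources used here. Per the labels, the extraction text speaks of tissue and the design of a microarray, whereas library type and values are those of sequenced cell cultures. Read counts were not used here, so depth and counting error are unknown.

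Values were taken as log2(TPM + 1) and genes averaging 1 TPM or more were fitted with limma 3.58.1 (R 4.3.3) as in9 minus LV2, with an intensity trend, two-sided, and Benjamini-Hochberg adjustment over 13406 genes. Same-numbered libraries deviated with r of -0.0969, 0.0223 and -0.0461, so the numbers were not taken to pair samples. The members and gene lists were chosen with earlier results of these data known. Named were all members, and of each other list the called genes and the 3 with the smallest p, and the 2 genes most correlated with each called member; others were chosen after their values were seen. Gene coordinates, exons and 3' UTR came from GENCODE M21, and promoters and microRNA from RefSeq. The settings varied were the pseudocount (0.1), the filter (none, or 5 TPM), trimmed-mean scaling, quantile normalization, no trend, library weights, a replicate block, mitochondrial transcripts left out, and each library left out.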

Additional observations from a re-analysis of the deposited data

How the results depend on the processing

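The direction of all 10 genes and their median log2 fold change held under the 15 alternatives. Of 149 single values 96 kept their side of the threshold, 45 lost a call, 8 gained one and 0 changed sign. All 45 losses fell on the 5 called members, each of which was called under only 5 to 7 of the 15 alternatives. The 96 include the values of genes that stayed uncalled. The count of members called higher was 5. It was 0 with no filter or no intensity trend, 3 with trimmed-mean scaling, 2 with quantile normalization, 9 with library weights, and 0 to 9 when 1 library was left out.

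Over all genes 110 were called higher and 26 lower. The counts were 24 and 6 with no filter, 27 and 4 with no trend, and 1166 and 523 with library weights. With 1 library left out they ran from 4 to 908 and from 1 to 494, and a minimum of 5 TPM gave 45 lower. For the other hypoxia-induced genes the 1 called higher became 0 with no filter or no trend, 2 at a minimum of 5 TPM, 15 with library weights and 0 to 13 with 1 library left out. The 0 called lower became 1 with library weights and 0 to 1 with 1 library left out. For the other HIF regulators the 0 called higher became 1 with library weights and 0 to 1 with 1 library left out, and the 1 called lower became 0 with no filter or no trend, 2 with weights and 0 to 2 with 1 library left out.

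With a replicate block, 1 gene was called higher and 1 lower over all genes, and 0 members, 0 hypoxia-induced genes and 0 HIF regulators were called. The numbers shared no deviation, so the block says nothing of weaker effects. With 3 libraries a group and adjusted p of 0.0296 to 0.0473, the calls sit near the threshold, and the cause of each change was not tested. Adm could not be tested at a minimum of 5 TPM.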
